A study of Mus musculus with 4 samples.

Results

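The serpins are a protein family, most of whose members inhibit proteases, and their transcripts were examined in hematopoietic stem and progenitor cells (HSPC) sorted from mice. Members were taken by name, as every gene symbol that starts with Serpin in the count tables. This gave 63 of the 24015 symbols listed. The tables hold RNA-seq read counts of 2 caNIK libraries and 2 control libraries. The caNIK mice carried NIK that TRAF3 cannot target, placed behind a loxP-flanked stop at the Rosa locus, and were crossed with Vav-iCre mice, whose Cre acts in blood cells. The sources used here do not give the genotype of the controls beyond that word, the markers of the sort, the tissue, or how many animals of which age and sex were used. Nothing states that the replicates came from separate animals, so p-values and SEs measure only how far these samples differ, and that spread may be technical. The family was proposed, and Serpinb9 and its paralogs were set apart, with results of this comparison known. The members' differences below are therefore descriptions.

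A typical serpin offers the target protease a reactive loop as bait, and when the loop is cut the serpin changes shape and traps the enzyme in a covalent complex. Clade a holds mostly secreted plasma proteins, while clade b serpins mostly stay inside cells, where they meet granule and lysosomal proteases that leak into the cytosol. In mouse, both clades contain clusters of closely related copies, among them the Serpina3 genes and the Serpinb9 genes.

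NIK, encoded by Map3k14, is the kinase at the head of the non-canonical NF-kB pathway. Map3k14 had 3305 and 3989 counts in the caNIK libraries, against 582 and 588 counts in the control libraries. Its log2 fold change was 2.74 ± 0.17 (SE; edgeR quasi-likelihood test, adjusted p = 0.00023), in the direction the labels give. Library totals lay between 18574452 and 23162766 counts. Levels are given as CPM, in which counts are scaled for depth by the trimmed mean of M values. Summed CPM of 10 HSPC markers was 1186 and 948 in caNIK, against 2462 and 2190 in control. All 10 of these markers passed the filter on low counts, 1 of them higher and 3 lower in caNIK. The shares over all genes tested were 13.8% higher and 8.21% lower. The progenitor receptor Kit had 10387 and 10494 counts in caNIK, against 11767 and 14385 counts in control.

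The Serpinb9 and Serpinb9b promoters are shown because these neighbouring paralogs had similar levels in caNIK cells but unlike levels in control cells. Each is given 5′ to 3′ from 250 bases before to 50 bases after the RefSeq gene start in GRCm38.p6, on the plus strand, at chr13:33004291-33004590 for Serpinb9 and chr13:33027164-33027463 for Serpinb9b. The count tables use mm9, so these positions hold for GRCm38.p6 only. In Serpinb9, capitals mark a match on the other strand to GAAA, any 2 bases and GAAA. In Serpinb9b they mark a match to the kB-like motif GGG, any 5 bases and CC.
Serpinb9: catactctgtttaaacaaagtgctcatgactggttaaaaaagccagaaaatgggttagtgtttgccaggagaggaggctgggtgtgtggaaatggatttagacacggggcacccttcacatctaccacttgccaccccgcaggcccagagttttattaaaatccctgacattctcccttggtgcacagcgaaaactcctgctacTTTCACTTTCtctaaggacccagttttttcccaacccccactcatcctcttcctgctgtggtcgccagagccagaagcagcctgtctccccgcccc
Serpinb9b: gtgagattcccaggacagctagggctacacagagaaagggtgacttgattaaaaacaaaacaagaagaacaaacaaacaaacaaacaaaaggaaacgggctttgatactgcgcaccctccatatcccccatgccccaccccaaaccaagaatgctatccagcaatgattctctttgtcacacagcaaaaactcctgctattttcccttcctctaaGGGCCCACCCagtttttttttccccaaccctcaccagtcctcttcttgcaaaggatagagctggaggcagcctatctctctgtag
The windows were 57.4% identical, with a longest shared run of 13 bases, whereas the coding sequences were 85.3% identical (970 of 1137 aligned positions).

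Promoters of the Serpina3 copies were compared over 40 bases. The stretch was cut around the match to TTCNNNGAA (N for any base) in the Serpina3g promoter. In each other window the best ungapped match to that stretch was taken. The sequences below set 3 copies with many reads in caNIK, given first, beside 3 copies with few or no reads. Serpina3h, which also had many reads in caNIK, had no promoter window and could not be compared. Capitals mark TTCNNNGAA. All positions are of GRCm38.p6 and on the plus strand, except Serpina3c on the minus strand. They are chr12:104236102-104236141 (Serpina3g), chr12:104214411-104214450 (Serpina3f), chr12:104263008-104263047 (Serpina3i), chr12:104127861-104127900 (Serpina3b), chr12:104153965-104154004 (Serpina3c) and chr12:104406573-104406612 (Serpina3n).
Serpina3g: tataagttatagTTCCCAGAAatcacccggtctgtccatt
Serpina3f: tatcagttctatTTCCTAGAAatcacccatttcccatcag
Serpina3i: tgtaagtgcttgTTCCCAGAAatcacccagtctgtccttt
Serpina3b: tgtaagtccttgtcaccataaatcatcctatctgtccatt
Serpina3c: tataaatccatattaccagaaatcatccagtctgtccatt
Serpina3n: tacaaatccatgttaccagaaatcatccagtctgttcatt
Of 40 bases, 25 were the same as in Serpina3g in Serpina3f, 34 in Serpina3i, 30 in Serpina3b, 31 in Serpina3c and 30 in Serpina3n. TTCNNNGAA lay in this stretch in Serpina3g by the choice of the stretch, and also in Serpina3f and Serpina3i. It lay in none of the other 5 Serpina3 windows matched, and Serpina3k and Serpina3m were not matched. This motif and the GAAA motif were chosen after the data were seen, and a match is no evidence that a factor binds.

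Of the 63 serpins, 38 had at least 1 read and 25 had none in any library. A gene with no read may still have had up to 3 counts in a library, which is 0.128 to 0.161 CPM. The filter left 20 members to test, and the 18 others with reads held 147 reads in all, with at most 20 in a library. Of the 20 tested, 11 were higher in caNIK, 2 were lower and 7 did not pass, at an adjusted p under 0.05 over all genes. Over all 14191 genes tested, 13.8% were higher and 8.21% were lower. The family was chosen with this comparison known, so nothing is read from the difference between these shares. The median log2 fold change of the 20 was 2.65, against 0.0038 over all genes tested. That median is no support either, because 9 of the 20 passed the filter only through the caNIK libraries, and 6 of those 9 were among the 11 higher members. Of the rest, 10 passed the filter in both groups, and of these 5 were higher, Serpinf1 was lower and 4 missed the threshold. Serpinb8 passed the filter only through control.

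All serpins together held 38077 and 42804 reads in the caNIK libraries, against 6415 and 7088 reads in the control libraries. This was 2045 and 2064 CPM in caNIK, against 333 and 302 CPM in control. Serpina3g alone held 53.5% and 50.4% of the family's reads in caNIK, against 30.8% and 27.7% in control. Without it, the sum was still 952 and 1024 CPM in caNIK, against 230 and 218 CPM in control. In the control libraries the gene with most serpin reads was Serpinb1a, at 35.9% in both. These are bulk samples, in which fewer cells of a type and less RNA per cell cannot be told apart.

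The make-up of the family's reads differed by clade. Clade a held 65.5% and 62.4% of serpin reads in caNIK, against 32.7% and 29.3% in control. Serpinb9 and its paralogs held 15.7% and 19.6% in caNIK, against 5.66% and 4.77% in control. The rest of clade b held 15.8% and 13.9% in caNIK, against 45.0% and 44.5% in control. For the other clades it was 2.98% and 4.10% in caNIK, against 16.7% and 21.4% in control. These smaller shares are of a larger sum and were not lower levels. In CPM the rest of clade b summed to 323 and 287 in caNIK, against 150 and 134 in control. The other clades summed to 60.8 and 84.5 CPM in caNIK, against 55.4 and 64.8 CPM in control, and these ranges overlapped.

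**Figure D1:**
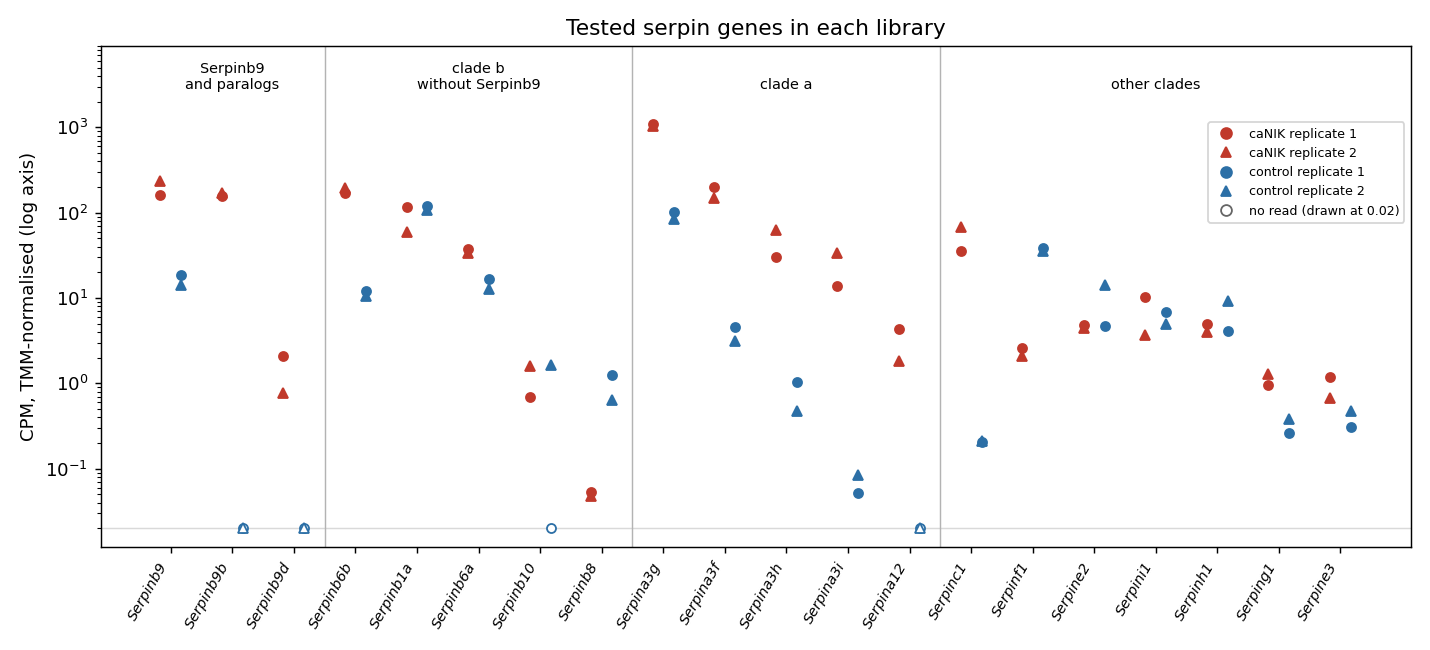
Level of the 20 tested serpins in each library, as CPM on a log axis, with caNIK points left of control points, genes grouped by clade and open symbols where a library had no read. Serpina3g stands at 1093 and 1040 CPM in caNIK, against 103 and 83.8 CPM in control, and Serpinf1 lies the other way, at 2.58 and 2.12 CPM in caNIK, against 38.5 and 35.3 CPM in control.

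Clade a listed 25 members, of which 14 had no read, 11 had reads and 5 were tested. All 5 tested members were higher in caNIK, with a median log2 fold change of 5.98, or 5.49 with Serpina12, which had no control read, at its lower bound. Over all genes 13.8% were higher, but 3 of the 5 (Serpina12, Serpina3h and Serpina3i) passed the filter only through the caNIK libraries, so nothing is read from this count. Serpina3g, also called Spi2A, is an intracellular member known in mouse to inhibit lysosomal cysteine cathepsins. It had 20353 and 21567 counts in caNIK, against 1978 and 1966 counts in control, or 1066 ± 37.6 CPM against 93.2 ± 13.3 CPM (SD, n = 2 each). Both caNIK libraries lay far above both control libraries, and the replicates of each group were close. Serpina3g was 11.4-fold higher (log2 fold change 3.52 ± 0.17, SE). Per kilobase of transcript, Serpina3g was the most abundant serpin in caNIK at 591 CPM per kb, against 51.7 CPM per kb in control, where Serpinb1a was above it at 59.4 CPM per kb.

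Serpina3f, the neighbouring copy of Serpina3g, had 3678 and 3068 counts in caNIK, against 89 and 73 counts in control. Its level was 173 ± 35.1 CPM in caNIK and 3.86 ± 1.06 CPM in control (SD, n = 2 each). The groups did not overlap, as in 64.9% of all genes tested, and Serpina3f was 44.9-fold higher (log2 fold change 5.49 ± 0.28, SE). Serpina3h, which RefSeq lists as a transcribed pseudogene, had 568 and 1315 counts in caNIK, against 20 and 11 counts in control. Serpina3i had 257 and 695 counts in caNIK, against 1 and 2 counts in control. Both copies were above control in each caNIK library and were higher in caNIK replicate 2 than in caNIK replicate 1, 2.08 times for Serpina3h and 2.43 times for Serpina3i in CPM. Serpina3h had a log2 fold change of 5.98 ± 0.54 (SE), which was 5.33 without caNIK replicate 2 and 6.61 without control replicate 1. The ratio of Serpina3i was 345, with an exact 95% interval of 118 to 1674 that covers counting error only, and was 197 without caNIK replicate 2.

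The 4 Serpina3 copies share sequence, which limits how their reads can be assigned. Their transcripts were 83.0% to 93.9% identical over local alignments. Of all 50-base windows of its annotated transcripts, Serpina3g had 16.0% that also occur in another gene, Serpina3f 10.7%, Serpina3h 24.4% and Serpina3i 15.4%. The sources used here do not say how reads with several matching places were counted, so levels of single copies are uncertain to that extent. The copies lie side by side in RefSeq order, Serpina3f, Serpina3g, Serpina3h and Serpina3i, with no gene between the last 3. Serpina3n, which lies further along the same cluster, had 5 and 9 counts in caNIK, against 0 and 1 count in control. Serpina3b, on the other side, had 8 and 6 counts in caNIK, against 2 and 20 counts in control.

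Serpina12, the adipokine vaspin, had 81 and 38 counts in caNIK and no count in either control library. Against 3 counts over the control group it was at least 43.1-fold higher, or at least 26.1-fold without caNIK replicate 1. Serpina1a, a gene for alpha1-antitrypsin made by the liver, had 1 and 2 counts in caNIK, against 0 and 1 count in control. Of 6 hepatocyte markers, Apoa1 held nearly all of the summed level, with 672 and 482 counts in caNIK, against 1792 and 314 counts in control. The other 5 markers summed to 0.430 and 0.530 CPM in caNIK, against 0 and 0.469 CPM in control. Among them, albumin (Alb) had 0 and 5 counts in caNIK and none in control, and Ttr and Fgb had none in any library.

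Serpinb9 and its paralogs listed 7 members, of which 3 were tested and all 3 were higher in caNIK. The share over all genes tested was 13.8% higher. Serpinb9b and Serpinb9d passed the filter only through the caNIK libraries, so nothing is read from the count of 3 either. Serpinb9 inhibits granzyme B, and cytotoxic cells and antigen-presenting cells use it to protect themselves from that enzyme. It had 2980 and 4818 counts in caNIK, against 363 and 338 counts in control. Its level was 196 ± 51.1 CPM in caNIK and 16.6 ± 3.13 CPM in control (SD, n = 2 each), so the groups stood apart by more than their spread. Serpinb9 was 11.8-fold higher (log2 fold change 3.56 ± 0.25, SE).

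Serpinb9b, reported in mouse to inhibit granzyme M, had 2941 and 3548 counts in caNIK and no count in either control library. Its level in caNIK was 164 ± 9.27 CPM (SD, n = 2). Against 3 counts over the control group, which is 0.0702 CPM, it was at least 2349-fold higher. Leaving out a control library lowers what a count of 0 can show, and the bound was then at least 1059-fold. In caNIK the Serpinb9 and Serpinb9b levels were close per kilobase of transcript, at 56.5 and 50.6 CPM per kb, while in control Serpinb9 stood at 4.79 CPM per kb and Serpinb9b had no read. Of the 50-base windows of Serpinb9b, 0.406% also occur in Serpinb9.

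Serpinb9d had 39 and 16 counts in caNIK and none in control, and was at least 19.9-fold higher. It was 2.71 times higher in caNIK replicate 1 than in caNIK replicate 2 in CPM, and without caNIK replicate 1 the bound was 10.99-fold and the call was lost (edgeR adjusted p = 0.12). Of its 50-base windows, 30.8% occur in another gene. The remaining paralogs were near or at 0. Serpinb9g had 5 and 2 counts in caNIK, Serpinb9e had 1 and 1, and Serpinb9f had 0 and 2, all 3 with no count in control, and Serpinb9c had no count in any library. The median log2 fold change of the 3 tested members was 7.88, or 4.31 with the 2 that had no control read at their lower bounds.

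**Figure D2:**
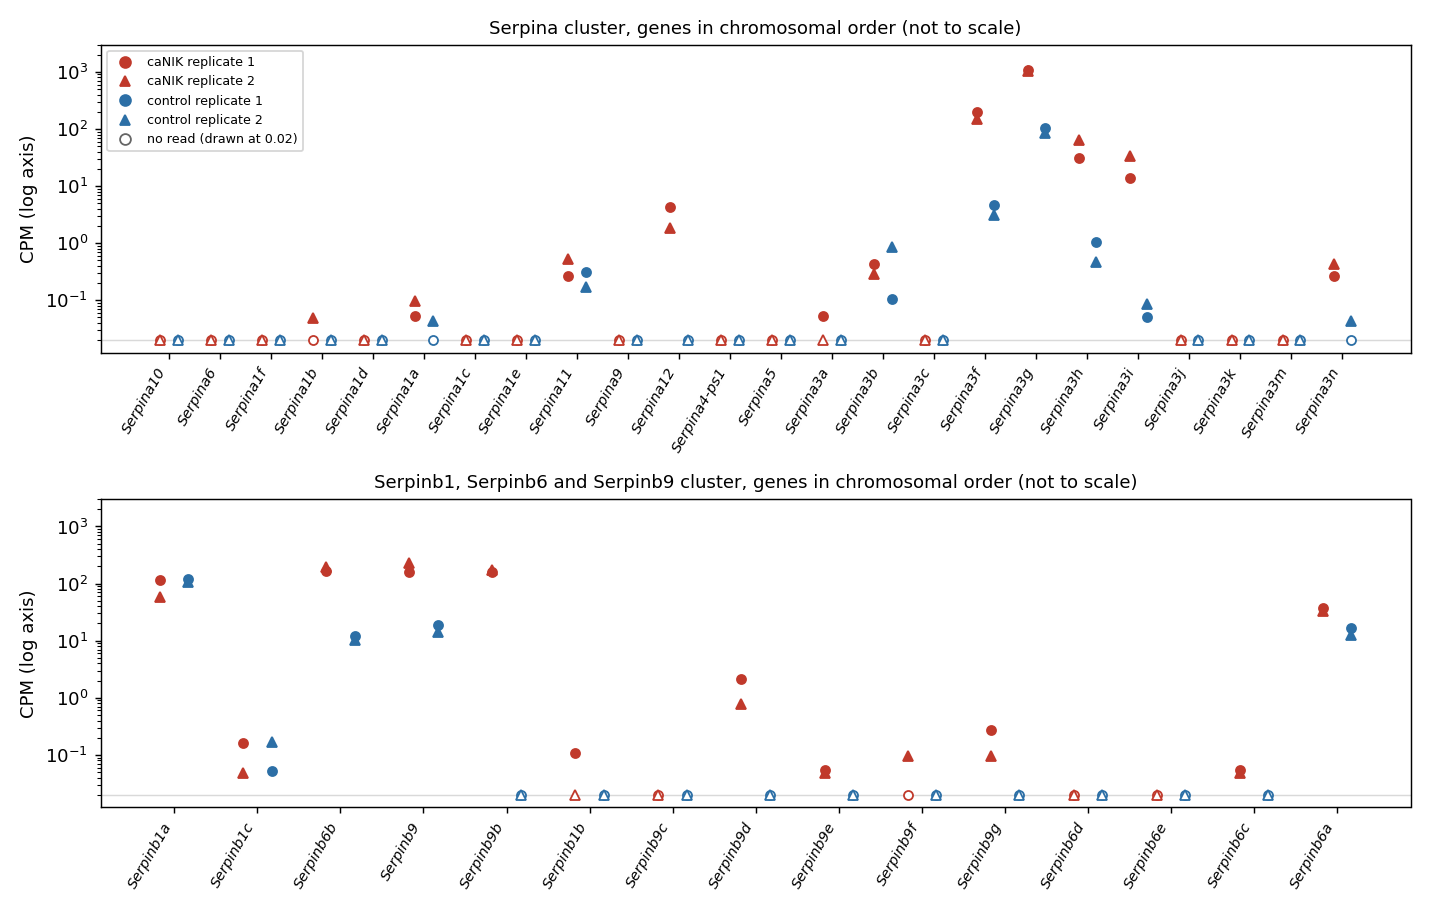
CPM in each library (log axis, open symbols for no read) of the clustered Serpina genes above and of the Serpinb1, Serpinb6 and Serpinb9 genes below, in RefSeq order and not to scale, with caNIK points left of control points. The 4 neighbours Serpina3f to Serpina3i stand above control in both caNIK libraries, as do Serpinb6b, Serpinb9 and Serpinb9b, while most copies around them have few or no reads. Serpina12, Serpinb6a, Serpinb9d and some genes with few counts also stand above control in both. The groups did not overlap in 64.9% of all genes tested.

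The rest of clade b listed 20 members, of which 9 had no read and 5 were tested. Serpinb6b and Serpinb6a were higher in caNIK, Serpinb8 was lower, and Serpinb1a and Serpinb10 did not pass. The median log2 fold change of the 5 was 0.44. All genes tested had shares of 13.8% higher and 8.21% lower. Serpinb10 passed the filter only through caNIK and Serpinb8 only through control, so nothing is read from this count. Serpinb6b, a mouse serpin reported to inhibit granzyme A, had 3131 and 4005 counts in caNIK, against 235 and 245 counts in control. It averaged 181 ± 17.6 CPM in caNIK and 11.3 ± 1.24 CPM in control (SD, n = 2 each), and was 16.0-fold higher (log2 fold change 4.0 ± 0.19, SE). Serpinb6b lies next to Serpinb9 in RefSeq order, and Serpinb9 next to Serpinb9b, and these neighbours were the 3 clade b members with the highest level per kilobase in caNIK, at 82.4, 56.5 and 50.6 CPM per kb.

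Serpinb6a, whose human counterpart inhibits cathepsin G, lies at the far end of the same cluster. It had 701 and 692 counts in caNIK, against 326 and 301 counts in control. The groups did not overlap, as in 64.9% of all genes tested. The difference was smaller than that of Serpinb6b, at a log2 fold change of 1.26 ± 0.23 (SE), which is 2.39-fold. The coding sequences of Serpinb6a and Serpinb6b were 85.7% identical, while 2.68% of Serpinb6a windows and 3.13% of Serpinb6b windows of 50 bases occur in another gene.

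Serpinb1a inhibits the neutrophil proteases elastase, proteinase 3 and cathepsin G. It had 2162 and 1219 counts in caNIK, against 2301 and 2545 counts in control. Its level was 87.4 ± 40.5 CPM in caNIK and 114 ± 7.72 CPM in control (SD, n = 2 each). The caNIK libraries differed 1.98 times from each other, caNIK replicate 1 lay within the control range and caNIK replicate 2 below it. Its log2 fold change of -0.38 ± 0.30 (SE) did not pass, but without caNIK replicate 1 it was -0.95 and passed as lower (edgeR adjusted p = 0.012).

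Serpinb8, whose human counterpart inhibits furin, had 1 and 1 count in caNIK, against 24 and 15 counts in control. It falls outside the rule for named genes and was chosen after its values were seen. The control over caNIK ratio was 18.0, with an exact 95% interval of 4.65 to 153 for counting error. The call was lost without caNIK replicate 1 (edgeR adjusted p = 0.15), without caNIK replicate 2 (0.19) and without control replicate 1 (0.17). Serpinb10, or bomapin, had 13 and 33 counts in caNIK, against 0 and 39 counts in control. Its control libraries spanned the caNIK libraries and it did not pass, while without control replicate 2 it passed as higher (edgeR log2 fold change 7.5, adjusted p = 0.027).

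Among the other clades, 11 members were listed, 10 had reads and 7 were tested. Serpinc1 was higher in caNIK, Serpinf1 was lower and 5 did not pass, with a median log2 fold change of 0.23. This is 14.3% in each direction, against 13.8% higher and 8.21% lower over all genes tested. Serpinc1, Serping1 and Serpine3 passed the filter only through the caNIK libraries, so nothing is read from this count. Serpinc1 is antithrombin, a plasma inhibitor of thrombin and factor Xa that is made by the liver. It had 668 and 1402 counts in caNIK, against 4 and 5 counts in control, with 51.7 ± 22.4 CPM in caNIK and 0.210 ± 0.0039 CPM in control (SD, n = 2 each). Both caNIK libraries were far above control, and caNIK replicate 2 was 1.88 times caNIK replicate 1. Serpinc1 was 239-fold higher (log2 fold change 7.90 ± 0.49, SE). None of its 50-base windows was found in another gene.

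Serpinf1 encodes pigment epithelium-derived factor, a secreted serpin that inhibits no protease and restrains blood vessel growth. It had 48 and 44 counts in caNIK, against 743 and 828 counts in control, with 2.35 ± 0.323 CPM in caNIK and 36.9 ± 2.30 CPM in control (SD, n = 2 each). The replicates of each group were close. The groups did not overlap, as in 64.9% of all genes tested. Serpinf1 was 15.7-fold lower in caNIK (log2 fold change -3.97 ± 0.26, SE). Per kilobase it was the third serpin by level in control, at 20.1 CPM per kb, behind Serpinb1a and Serpina3g.

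Serpine2, or protease nexin-1, had 89 and 92 counts in caNIK, against 90 and 333 counts in control, and did not pass (log2 fold change -1.04 ± 0.55, SE). The control libraries differed far more than the caNIK libraries, and without control replicate 1 the gene passed as lower (edgeR log2 fold change -1.64, adjusted p = 0.022). Without control replicate 2 its log2 fold change was -0.018 (edgeR adjusted p = 0.99). Serpini1, the brain inhibitor of tissue plasminogen activator called neuroserpin, had 191 and 76 counts in caNIK, against 133 and 117 counts in control, and did not pass. Serpinh1, a collagen chaperone, had 92 and 84 counts in caNIK, against 80 and 214 counts in control, and did not pass either. The log2 fold change was 0.23 ± 0.54 (SE) for Serpini1 and -0.56 ± 0.49 (SE) for Serpinh1. Serping1, the inhibitor of complement C1, and Serpine3 also did not pass, with 18 and 27 counts for Serping1 in caNIK, against 5 and 9 counts in control, and 22 and 14 counts for Serpine3 in caNIK, against 6 and 11 counts in control. The plasma serpins Serpinf2 and Serpind1 had at most 7 counts in a library.

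**Figure D3:**
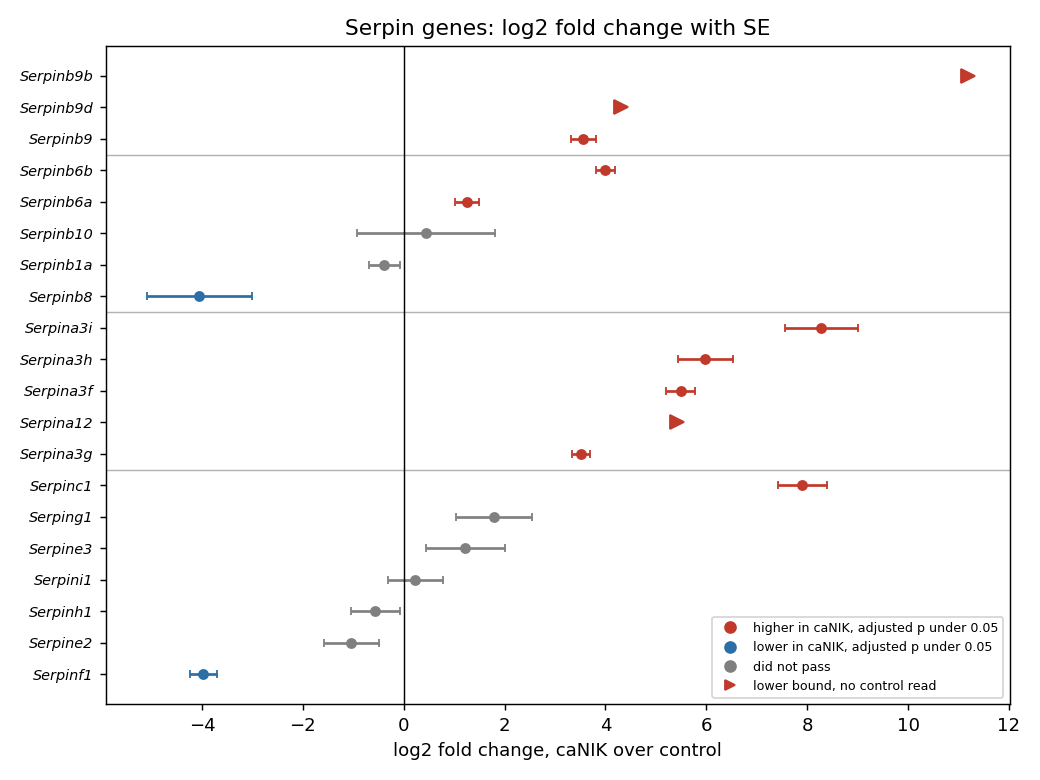
Log2 fold change (caNIK over control) of the 20 tested serpins, with bars for the SE, grouped by clade and marked by call. All 5 tested clade a members and all 3 tested members of the Serpinb9 group lie above 0 and passed as higher. Of these, Serpina12, Serpina3h, Serpina3i, Serpinb9b and Serpinb9d passed the filter only through the caNIK libraries. Serpinf1 and Serpinb8 lie below 0 and passed as lower. The shares over all genes tested were 13.8% higher and 8.21% lower. Triangles give the lower bounds of Serpinb9b, Serpinb9d and Serpina12, which had no control read.

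The members differed in which caNIK library was the higher. In CPM, 12 of the 20 tested serpins were higher in caNIK replicate 1 and 8 in caNIK replicate 2. Serpina3h, Serpina3i and Serpinc1 were higher in caNIK replicate 2, while Serpina12 and Serpinb9d were higher in caNIK replicate 1. Serpina3g, Serpinb6b and Serpinb9b differed by at most 1.15 times between the caNIK libraries.

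Promoter windows were found in RefSeq for 52 of the 63 members, including 10 of the 11 higher ones, and gave 61 windows of 300 bases. The kB-like motif (GGG, any 5 bases, CC; all motifs were searched on both strands) was in 25 of the 61 windows (41.0%), against 50.8% of all 32851 windows. Its stricter form with an A after the GGG, whose matches are all matches of the looser form, was in 11 windows (18.0%), against 20.7% of all. GAAA, any 2 bases and GAAA was in 3 windows (4.92%), against 3.44% of all, and TTCNNNGAA was in 11 windows (18.0%), against 8.30% of all. Some copies in a cluster had similar windows, with 67.7% identity between Serpina3f and Serpina3i. The identity of 42.5% between Serpina3f and Serpina3g was no more than the 43.6% between Serpinb9 and Serpinb6b. Overlapping windows of Serpina3f also held the same TTCNNNGAA site, which was counted in each. These counts are therefore not of independent sequences.

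A list of 52 genes for proteases and partners of serpins was followed as context, chosen with results of these data known. Some of them, such as the carboxypeptidase Cpa3, are not established serpin targets. Of the 52, 36 were tested, 18 were higher in caNIK, 3 were lower and 15 did not pass, and 16 were not tested. Over all genes tested, 13.8% were higher and 8.21% were lower. The list's median log2 fold change was 1.60, also with its 3 genes without a control read at their lower bounds, against 0.0038 over all genes tested. Of the 36, 6 passed the filter only through the caNIK libraries and 5 of those were higher, so the count and the median support nothing about the list. The list overlaps the mast cell and neutrophil markers used below.

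Of the 8 proteases past the threshold with the smallest p, 5 are made by mast cells. Tpsb2, a mast cell tryptase, had 530 ± 246 CPM in caNIK and 6.08 ± 2.40 CPM in control (SD, n = 2 each), with a log2 fold change of 6.45 ± 0.46 (SE). Tpsab1, the other tryptase, had 88.6 ± 64.8 CPM in caNIK and 0.206 ± 0.0707 CPM in control. The mast cell chymases Cma1 and Mcpt4 had 341 ± 158 CPM and 433 ± 147 CPM in caNIK, against 6.34 ± 3.36 CPM and 7.05 ± 5.58 CPM in control. The mast cell carboxypeptidase Cpa3 had 286 ± 144 CPM in caNIK and 20.9 ± 4.41 CPM in control. The tryptases and chymases are related copies themselves, so reads may be split between them. All 5 mast cell genes passed as higher, with edgeR adjusted p between 0.00037 and 0.0012, and all 5 were higher in caNIK replicate 1 than in caNIK replicate 2.

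Known targets of some serpins that were higher in caNIK were also measured. Gzmb, which encodes granzyme B, the target of Serpinb9, had 53.9 ± 28.3 CPM in caNIK and 9.85 ± 7.85 CPM in control (SD, n = 2 each; log2 fold change 2.46 ± 0.62, SE; edgeR adjusted p = 0.033). Gzma and Gzmm, which encode granzymes A and M, did not pass and their groups overlapped. Of the 8 cysteine proteases of the lysosome in the list, Ctsl, Ctss, Ctsh and Ctsz were higher, and Ctsb, Ctsc, Ctsk and Lgmn did not pass. Ctsl had 71.1 ± 0.642 CPM in caNIK and 20.7 ± 1.68 CPM in control (log2 fold change 1.78 ± 0.17, SE; edgeR adjusted p = 0.00087). F2, which encodes prothrombin, the precursor of a target of Serpinc1, had 15.5 ± 5.32 CPM in caNIK and 0.201 ± 0.138 CPM in control (log2 fold change 6.18 ± 0.60, SE; edgeR adjusted p = 0.00098). F10, which encodes the precursor of factor Xa, another target, did not pass and its groups overlapped (log2 fold change 0.59 ± 0.73, SE; edgeR adjusted p = 0.61). Casp4, an inflammatory caspase named by its small p and not as a target of these serpins, had 70.4 ± 0.888 CPM in caNIK and 8.50 ± 2.14 CPM in control (log2 fold change 3.05 ± 0.23, SE; edgeR adjusted p = 0.00045).

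The neutrophil serine proteases lay the other way. Elane, encoding elastase, had 4.56 and 8.77 CPM in caNIK, against 23.6 and 110 CPM in control, and was lower (log2 fold change -3.32 ± 0.72, SE; edgeR adjusted p = 0.020). Prtn3, encoding proteinase 3, had 14.9 ± 9.11 CPM in caNIK and 166 ± 101 CPM in control, and was lower (log2 fold change -3.48 ± 0.57, SE; edgeR adjusted p = 0.0076). Ctsg, encoding cathepsin G, had 50.8 ± 15.7 CPM in caNIK and 154 ± 102 CPM in control and did not pass (log2 fold change -1.60 ± 0.47, SE; edgeR adjusted p = 0.053). Lrp1, a receptor that clears serpin complexes, was the third member of the list that was lower, at 22.9 ± 2.28 CPM in caNIK and 48.7 ± 6.09 CPM in control.

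**Figure D4:**
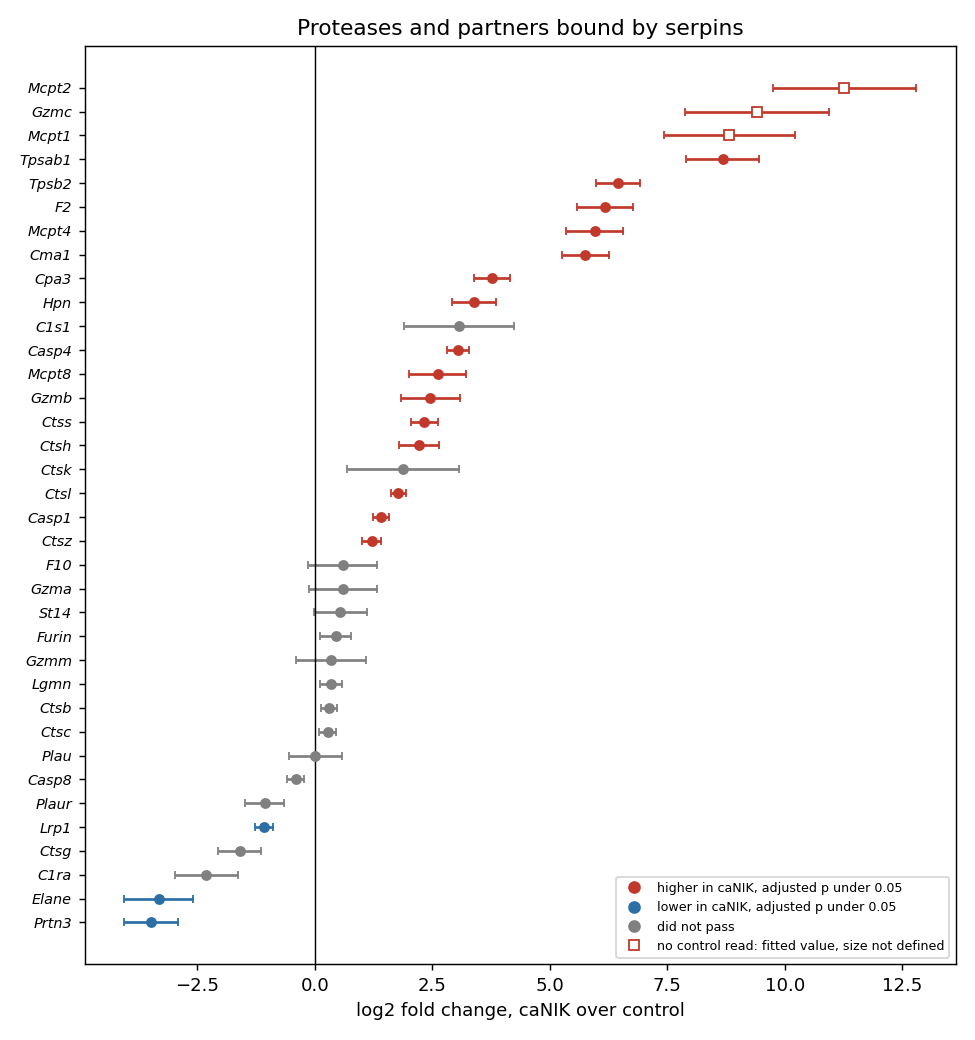
Log2 fold change (caNIK over control) of the 36 tested proteases and partners, with bars for the SE and open squares for fitted values of genes with no control read, whose size is not defined. The 18 that passed as higher include the mast cell tryptases and chymases, and Lrp1, Elane and Prtn3 passed as lower.

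Marker lists of other blood cells did not all move one way. Counts of markers called, here and in the next paragraph, stand beside shares of 13.8% higher and 8.21% lower over all genes tested. Nothing is read from the counts of the short lists. Summed CPM of 9 mast cell and basophil markers was 2957 and 1592 in caNIK, against 176 and 270 in control, and 8 of the 9 were higher. Of 8 listed dendritic cell and macrophage markers 4 were higher and 1 was lower. Their sum was 2953 and 2457 CPM in caNIK, against 656 and 566 CPM in control. Without Cd74, which presents antigen with MHC class II, it was 234 and 193 CPM in caNIK, against 636 and 541 CPM in control. Flt3, the 1 that was lower and also an HSPC marker here, made up most of that control remainder. It had 113 and 58.3 CPM in caNIK, against 593 and 472 CPM in control. Besides Cd74, the higher markers were Itgax, Xcr1 and Zbtb46.

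Of 9 listed neutrophil markers 5 were higher and 3 lower, at a sum of 359 and 450 CPM in caNIK, against 1267 and 3118 CPM in control. Without Mpo, the most abundant of them, the groups overlapped, at 298 and 384 CPM in caNIK, against 229 and 615 CPM in control. Of 9 cytotoxic T and NK cell markers 2 were higher, at a sum of 166 and 66.0 CPM in caNIK, against 80.0 and 42.7 CPM in control, and these ranges overlapped. Of 5 B cell markers none was higher and 1 was lower, at a sum of 68.1 and 46.0 CPM in caNIK, against 65.3 and 47.4 CPM in control. The part of these cell types in the serpin differences was not tested.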

How the data were processed

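The authors deposited 1 table of raw read counts per gene symbol for each of the 4 libraries, not normalized, per the file headers; all values were whole. The build mm9 and the tools TopHat2 2.1.0, featureCounts 1.5.0, DESeq2 1.10.1 and FastQC come from the submitters' processing notes, which give no role or order. For annotation, strand setting and reads with several matching places, the treatment is not given in the sources used. Groups and replicate numbers came from the sample titles. The members and all lists were chosen with earlier results of these data known.

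Counts were fitted in R 4.3.3 with edgeR 4.0.16 over the whole table (filterByExpr, which kept 14191 genes, trimmed mean of M values scaling, glmQLFit and the two-sided glmQLFTest with group as the only term). The threshold was an adjusted p (Benjamini-Hochberg) under 0.05. Log2 fold changes are caNIK over control, with SEs taken from the F statistic, and levels are mean CPM ± SD over 2 libraries. Replicates differed by more than sampling noise, at a chi-square per degree of freedom of 36.8 in caNIK and 20.5 in control, and were kept as separate samples. Where the control group had no count, the fold is a lower bound against 3 counts over the group, and where a group had 1 to 3 counts an exact 95% interval is given. The fit was tested on simulated data.

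Alternatives were DESeq2 1.42.0, other scalings and filters, the replicate number as a block and each library left out in turn. Named serpins were the Serpinb9 paralogs and those with a group mean of at least 5 CPM, or of at least 1 CPM where they passed. Named proteases were the 8 past the threshold with the smallest p, and Elane, Prtn3, Ctsg, Gzmb and Ctsl. Any other gene was chosen after its values were seen, and some genes are not reported here. Promoters, names and gene order came from RefSeq (GRCm38.p6), and transcript lengths (longest coding transcript) and identities from GENCODE M21, aligned with Biopython 1.88. Planned comparisons of protein sequences were replaced by coding and transcript sequences. Figures were drawn with matplotlib 3.10.9.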

Additional observations from a re-analysis of the deposited data

How the results depend on the processing

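The count of serpins higher in caNIK was 11, and it was 10 when at least 1 CPM in 2 libraries was required and 10 to 12 with a library left out, where a lone sample is assumed to vary like the other group. The count of lower serpins was 2, but 1 with that filter, 1 by DESeq2 and 1 to 2 with a library left out. Over all genes, 3129 passed, against 3801 by DESeq2, 3893 with no filter beyond 1 read and 2604 to 3174 with a library left out. With the replicate number as a block, 4260 genes passed, and 11 serpins were higher and 2 lower. Same-numbered libraries deviated together at a correlation of 0.213, over 2 pairs only, and no label ties them, so whether the numbers pair the libraries was not settled. Of 206 values of the 20 tested serpins and Map3k14 under alternatives, 193 kept their direction and side of the threshold, 5 lost the call, 3 gained one and 5 reversed. The reversals were of log2 fold changes that did not pass: Serpinb1a at 0.0088 without caNIK replicate 2, Serpini1 at -0.69 without caNIK replicate 1, Serpinh1 at 0.12 without control replicate 2, and Serpinb10 at -0.29 without caNIK replicate 2 and -0.55 without control replicate 1. With a library left out, Serpinb1a lay between -0.95 and 0.0088, Serpini1 between -0.69 and 0.77, Serpinh1 between -1.04 and 0.12, Serpine2 between -1.64 and -0.018 and Serpinb10 between -0.55 and 7.5. Serpinb8 did not pass by DESeq2 (adjusted p = 0.055), and neither Serpinb8 nor Serpinb9d was tested when at least 1 CPM in 2 libraries was required. The median log2 fold change of all genes lay between -0.064 with library totals and 0.057 by DESeq2. The stricter kB-like motif was in 11 of 61 promoter windows, against 25 for the looser one. The cause of these changes was not tested. With 2 libraries a group, members with few counts are limited by depth, and the 25 serpins with no read were not detectable at this depth.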
